A study of Lates calcarifer with 24 samples.

Results

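Liver signals of 3 innate immune genes, lbp, tlr8a and tnfsf14, were described across 6 feed groups of juvenile Asian seabass (Lates calcarifer). The members are the 3 probes that a supplementary table of the study pairs with these symbols, out of 60080 probes on the array, of which 12 others carry a symbol there. The genes were selected on the array signals of the groups kept for analysis, A to D, so every difference of Groups B, C and D from Group A below is a description without a test. Groups B, C, D, E and F received 5 different commercial pelleted feeds, labelled Feed B to Feed F, and Group A received frozen baitfish (Feed A, the control). All fish were 107 days post-hatch (dph) when feeding began and were sampled after 61 days, at 168 dph, with 4 one-colour arrays per group. The labels speak of 4 fish per group, the study's methods of a larger number of individuals per feed, and neither ties an array to 1 fish. According to the study's methods Feed F was given at a reduced ration and Feed E came in a single pellet size, for which both groups were left out there. The feeds are commercial products that differ in many nutrients at once.

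In mammals the 3 proteins act at different points of innate immunity. Lipopolysaccharide-binding protein (LBP) is an acute-phase protein made mainly by hepatocytes, which carries bacterial lipopolysaccharide to CD14 and its signalling receptor. Toll-like receptor 8 (TLR8) is an endosomal receptor for single-stranded RNA that signals through MyD88. TNFSF14, also called LIGHT, is a ligand of the tumour necrosis factor superfamily that is carried by activated T cells and other leukocytes and binds the herpesvirus entry mediator and the lymphotoxin beta receptor. In bulk liver, more RNA per cell and more cells of a type cannot be told apart. None of the leukocyte and hepatocyte markers looked for carries a symbol on the array in the sources used here, so cell make-up was not tested. A hepatocyte product that does carry a symbol, serpina1, was well above background on all 24 arrays and is described at the end.

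Each gene was read by 1 probe with 1 spot per array. The probe for lbp was CUST_6338_PI428621111 (transcript SBRGG_10371), that for tlr8a CUST_2671_PI428621111 (SBRGG_18724) and that for tnfsf14 CUST_29078_PI428621111 (SBRGG_27283). No genome position is given, because the transcripts are named only by the array's own identifiers and 0 of those were found in the reference gene table. That table holds the symbol tnfsf14 but neither lbp nor tlr8a. Probe sequences were not used here. The study's qPCR primer pairs for genes of these symbols are printed, and the pair shown for tlr8a is listed there as tlr8. The primers are linked to the probes by gene symbol only, not by sequence. All are 20 bases long, are given 5′ to 3′ in lower case with no part marked, and hold 55% or, for the forward primer of tlr8a, 60% G and C.
lbp forward: ccagtgttttccttccagcc
lbp reverse: tggggtctgggtaccatttc
tlr8a forward: gtctggaggagagggattgg
tlr8a reverse: accccagtcttaacgtagcc
tnfsf14 forward: ttgctcacctgataggctcc
tnfsf14 reverse: gtcgtagctcatgttgctgg

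Between 20.4% and 36.0% of the spots of an array were well above background, which is the scanner software's mark for a signal clear of its local background. The 24 arrays lay on 3 slides of 8, and slide 1 was dimmer, with a 75th percentile of signal of 22.2 to 32.9 against 42.4 to 80.2 on the others. The number of arrays limits the precision. Some doubts about labels touch these genes. First, the deposited table of processed values gives 3 of the 4 arrays of Group F under other replicate numbers than the scanner files. Its column for replicate 2 matched the scanner file of replicate 4 (r = 0.995 over 10627 probes), that for replicate 3 matched replicate 2 (r = 0.995) and that for replicate 4 matched replicate 3 (r = 0.997), while the other 21 columns matched their own arrays best. Replicate numbers below follow the scanner files, and the mean of Group F is the same either way. Second, it is not settled whether the letters C to F on the arrays name the same feeds as in the study. All values go by the sample labels, and the arrays labelled E and F may therefore have taken part in the choice of the 3 genes.

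The mean signal of lbp in each pellet group lay above that of Group A, farthest in Group D, though Groups E and F did not pass the test given further on. Signals are given as log2 of the background-subtracted, quantile-normalized intensity. In Group B, lbp read 9.53, 9.81, 8.94 and 9.48 on the 4 arrays, and in Group C 8.96, 8.80, 9.20 and 9.11. In Group D it read 9.76, 9.91, 10.57 and 10.15. These 12 arrays all lay above the control arrays. Taken group by group, in the order given, the same separation held for 1.85%, 1.84% and 3.46% of all probes. The signals were 9.87, 8.18, 9.77 and 9.17 in Group E, 9.22, 9.78, 7.95 and 8.35 in Group F, and 8.01, 7.72, 7.66 and 7.58 in Group A. Replicate 2 of Group E and replicates 3 and 4 of Group F came closest to the control level, and replicate 3 of Group F was the 1 pellet array of 20 below the highest control array. The probe was well above background on all 24 arrays, so each fold-change is a measured size.

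The mean lbp signal was 9.44 ± 0.36 in Group B, 9.02 ± 0.18 in Group C, 10.10 ± 0.36 in Group D, 9.25 ± 0.77 in Group E, 8.82 ± 0.83 in Group F and 7.74 ± 0.19 in Group A (SD, n = 4 each). Group B exceeded Group A by 1.70 log2 (3.24-fold), Group C by 1.27 (2.42-fold) and Group D by 2.36 (5.12-fold), each with a standard error of 0.36. In the order D, B, E, C, F, A, every pair of neighbours had overlapping arrays. The step between Groups D and B was 0.66 log2 against a pooled SD of 0.36, and the steps from B down to F were between 0.19 and 0.23. The signal of Groups E and F spread over 1.69 and 1.83 log2, against 0.40 in Group C and 0.44 in Group A.

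For tlr8a the control arrays gave no measurable level. In Group B tlr8a read 6.34, 5.61, 6.66 and 6.01, in Group C 5.55, 5.87, 5.82 and 5.59, and in Group D 5.98, 6.49, 6.39 and 6.26. All 12 lay above the control arrays, as for lbp, where the shares of all probes with this separation are given. Of these arrays 11 were well above background, the exception being replicate 2 of Group B. The signals were 6.34, 4.49, 6.16 and 5.13 in Group E, 5.11, 5.97, 4.76 and 3.96 in Group F, and 3.82, 4.47, 3.81 and 3.40 in Group A. The probe was well above background on 3 arrays of Group E, on 1 of Group F and on none of Group A.

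The mean tlr8a signal was 6.16 ± 0.45 in Group B, 5.71 ± 0.16 in Group C, 6.28 ± 0.22 in Group D, 5.53 ± 0.88 in Group E, 4.95 ± 0.83 in Group F and 3.88 ± 0.44 in Group A (SD, n = 4 each). By the fit Group B exceeded Group A by 2.28 log2, Group C by 1.83 and Group D by 2.40, with a standard error of 0.39. Because no control array was well above background, only a lower limit of the fold-change can be given. It sets the group mean against the mean, over the control arrays, of the lowest signal that was well above background on each array. On that basis the fold-change of tlr8a over Group A was 1.83 in Group B and 1.33 in Group C. In Group D it was 1.98 and in Group E 1.18. These limits are approximate and allow for the control floor only, not for the spread between arrays. In log2 the limit was 0.42 in Group C and 0.24 in Group E, against a standard error of 0.39. The means of Groups B and E each include replicate 2, which was not well above background. No fold-change is given for Group F, whose mean of 4.95 lay below the mean control floor of 5.29. In the order D, B, C, E, F, A all neighbours had overlapping arrays, and Groups D and B differed by 0.12 log2 against a pooled SD of 0.36.

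The signal of tnfsf14 was highest in Group D, where it stood apart from all other groups. It read 7.27, 7.60, 7.17 and 7.85 in Group D, 6.39, 6.70, 5.57 and 6.71 in Group B and 6.30, 6.25, 5.72 and 6.35 in Group C. The lowest array of Group D lay above the highest of the other 16 pellet arrays (6.71), which was so for 0.0999% of probes. In Group E the signals were 6.66, 5.72, 6.69 and 6.62 and in Group F 6.18, 6.66, 5.69 and 5.88, against 5.67, 5.16, 4.62 and 5.75 in Group A. All 20 pellet arrays were well above background but only 1 of the 4 control arrays, replicate 4. That array lay above 4 pellet arrays, 1 each of Groups B, C, E and F, so 16 of the 20 pellet arrays exceeded every control.

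The mean tnfsf14 signal was 6.34 ± 0.54 in Group B, 6.16 ± 0.30 in Group C, 7.47 ± 0.31 in Group D, 6.42 ± 0.47 in Group E, 6.10 ± 0.42 in Group F and 5.30 ± 0.52 in Group A (SD, n = 4 each). By the fit Group B exceeded Group A by 1.04 log2, Group C by 0.86 and Group D by 2.17, with a standard error of 0.30. These sizes rest on control arrays of which 3 were not well above background. The same floor as for tlr8a was set on each control array, with the array's own signal kept where that was higher. Against this reference Group B was 1.64-fold, Group C 1.44-fold and Group D 3.58-fold above Group A. The floor is approximate. On replicate 1 of Group A the intensity of 25.6 was not well above background, while a spot of another probe was, at 22.6. The order was D, E, B, C, F, A. The step between Groups D and E was 1.05 log2 against a pooled SD of 0.40, and the 4 groups from E to F lay within 0.32 log2 of each other, with overlapping arrays.

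**Figure D1:**
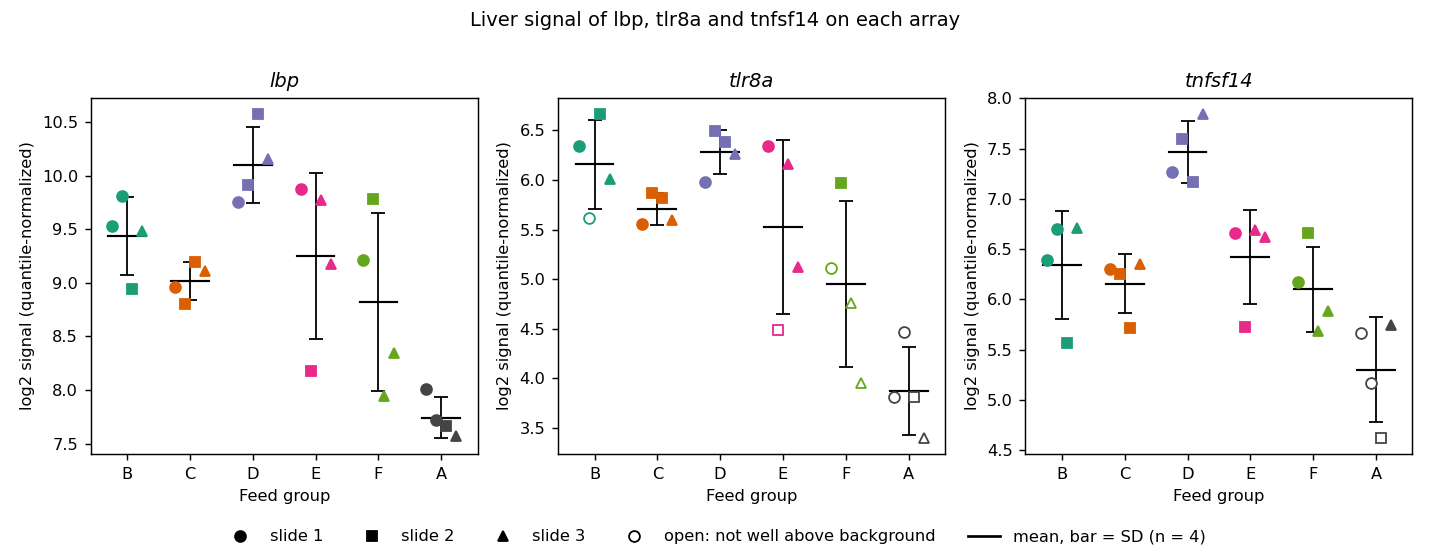
Log2 signal of lbp, tlr8a and tnfsf14 (vertical axis, separate scale for each gene) on the 4 arrays of each feed group, with slides as symbols, open symbols for arrays not well above background, and the mean with its SD. The mean of Group D is highest for all 3 genes, and 1 array of Group E and 2 of Group F lie near the controls of Group A for lbp.

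Set side by side, the comparisons share the 4 control arrays and are not independent of each other. All 4 arrays of the pellet group lay above all 4 arrays of Group A for lbp and tlr8a in Groups B, C and E, for all 3 genes in Group D and for none in Group F. The same separation was seen for 1.85%, 1.84%, 3.46%, 1.87% and 1.78% of all probes in Groups B to F in order of their letters. For tlr8a in Group E it rested on 0.01 log2 between replicate 2 of Group E (4.49) and replicate 2 of Group A (4.47), neither well above background. All 20 pellet arrays exceeded all 4 control arrays for 0.203% of probes and for none of the 3 genes. The array below the highest control was replicate 3 of Group F for lbp and replicate 4 of Group F for tlr8a, and lay in 4 groups for tnfsf14.

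The size of the differences depended on how background was treated. With normexp background correction and an offset of 50, the differences from Group A for tlr8a were 0.71, 0.52, 0.79, 0.51 and 0.24 log2 for Groups B to F in order of their letters. Those for tnfsf14 were 0.48, 0.31, 1.14, 0.51 and 0.35 in the same order. For lbp, whose probe was bright on every array, the differences moved less, to 1.47, 1.06, 2.05, 1.29 and 0.88. The offset is large beside the background-subtracted intensities of tlr8a, which were 8.97, 15.7, 14.5 and 12.1 on the arrays of Group A, and so compresses its differences by construction. The processed values that the authors deposited gave differences close to those with normexp, 0.84 for tlr8a and 1.14 for tnfsf14 in Group D. Over all settings, the 336 values for the difference of a pellet group from Group A were all positive, and the smallest was 0.04. These values are refits of the same arrays, and several settings return the same estimate. The genes were also chosen on the signals of Groups A to D. The count therefore describes how the sign depends on processing and is no independent evidence of a rise.

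**Figure D2:**
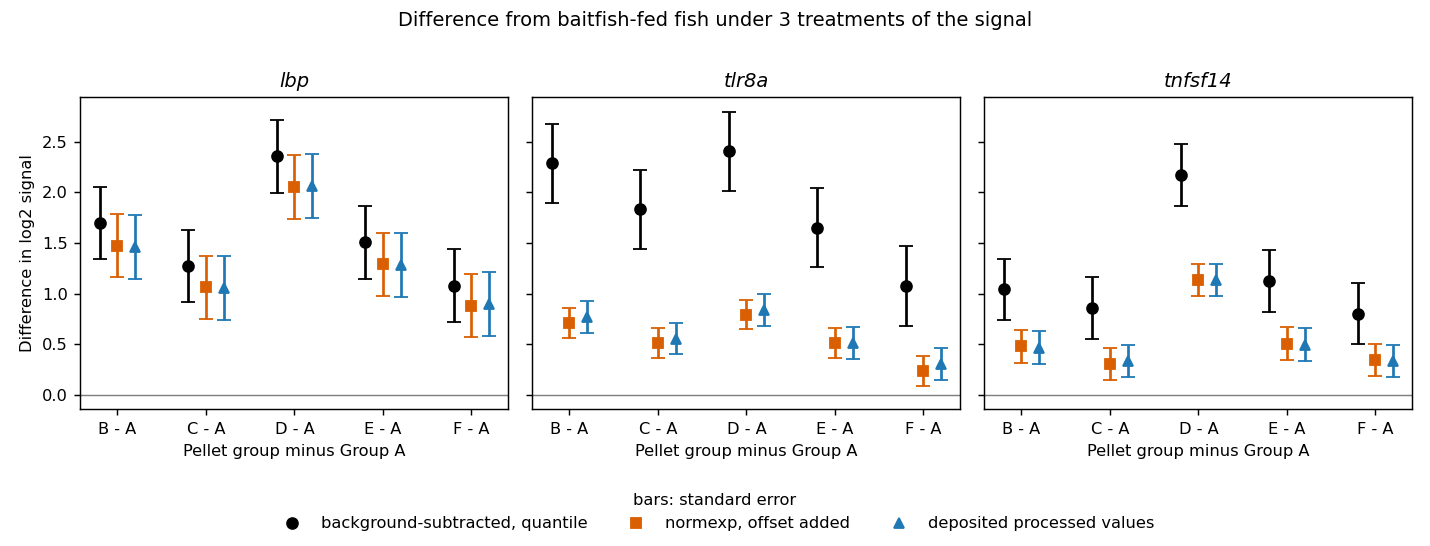
Difference in mean log2 signal between each pellet group and Group A (vertical axis) with its standard error, from background-subtracted intensities, from normexp with an offset of 50 and from the deposited processed values. The 3 treatments of the signal lie close together for lbp, while in Group D the first gives 2.40 for tlr8a and 2.17 for tnfsf14 against 0.79 and 1.14 with normexp.

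Groups E and F, which the study set aside, allow a test against Group A, with the limits that the control arrays are those used to choose the genes and that the letters are in doubt. The mean differences were positive for all 3 genes, but none passed the limma test with an adjusted p below 0.05 (Benjamini-Hochberg over 60080 probes) and a 2-fold change. For lbp the difference between Groups E and A was 1.51 ± 0.36 log2 (SE, 2.84-fold, limma adjusted p = 0.128), with all 4 arrays of Group E above all 4 of Group A. For tlr8a the fitted value was 1.65 ± 0.39 log2 (limma adjusted p = 0.128), and for tnfsf14 1.12 ± 0.30 log2 (1.73-fold with the floor on the control arrays, limma adjusted p = 0.186). In this comparison 14 probes passed the test as higher (0.0233%), and the median of all probes was -0.01 log2. The unadjusted p-values in limma were 0.000466 for lbp, 0.000452 for tlr8a and 0.00145 for tnfsf14. Of all 60080 probes, 4828 had an unadjusted p below 0.05 there.

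In the limma fit of all arrays, replicate 2 of Group E decided the outcome for lbp and tlr8a. It had the lowest signal of its group for all 3 genes. Of its spots 29.1% were well above background, against 22.3%, 32.9% and 27.8% on replicates 1, 3 and 4. Its 75th percentile of signal was 42.4, the lowest on slides 2 and 3. That of replicates 3 and 4 was 55.4 and 61.1, and that of replicate 1, on the dimmer slide 1, was 31.9. Why this array read low was not tested. Without it the difference was 1.86 log2 for lbp (limma adjusted p = 0.0171) and 2.0 log2 for tlr8a (limma adjusted p = 0.0220), both past the test, and over all probes 190 then passed as higher in place of 14. With any other of the 8 arrays left out, both genes stayed short of it. For tnfsf14 the adjusted p of limma lay between 0.0630 and 0.456 when 1 array was left out.

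Between Groups F and A the difference was 1.08 ± 0.36 log2 for lbp (SE, 2.11-fold, limma adjusted p = 0.418), 1.07 ± 0.39 log2 for tlr8a (limma adjusted p = 0.493) and 0.80 ± 0.30 log2 for tnfsf14 (1.39-fold with the floor, limma adjusted p = 0.522). For tlr8a, 1 array of Group F and none of Group A was well above background. The mean of tlr8a in Group F lay at -0.34 log2 from the floor on the control arrays, so the fitted 1.07 is no measured size. In this comparison 12 probes passed as higher (0.02%). No array left out brought any of the 3 genes past the test. Unadjusted p-values of the 3 genes were 0.00702, 0.0128 and 0.0157 in limma.

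Group F read lower than Group E in the mean for all 3 genes. The difference itself uses no control array, but its standard error and interval come from the spread pooled over all 6 groups. Fitted on the 8 arrays of Groups E and F alone, the standard error was 0.54 log2 for lbp, 0.57 for tlr8a and 0.30 for tnfsf14. In the fit of all arrays it was 0.36, 0.39 and 0.30, so the intervals below are narrow for lbp and tlr8a. The difference was -0.43 log2 for lbp (95% interval -1.17 to 0.32), -0.58 for tlr8a (-1.40 to 0.24) and -0.32 for tnfsf14 (-0.95 to 0.31), with a limma adjusted p of 1 for each. The intervals hold 0 as well as falls near or past 1 log2, so these data do not show that the groups are alike. No probe of the 60080 passed this comparison in limma (0%), while 2644 had an unadjusted p below 0.05, and the methods' t-test also left none of the 3 genes past the threshold.

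Slide was looked at as a batch, since each slide held arrays of all 6 groups. Within slide 1, 2 and 3 the lbp difference of Group D from Group A was 1.89, 2.58 and 2.58 log2, that of Group B 1.80, 1.28 and 1.90, and that of Group C 1.09, 1.34 and 1.54. For tlr8a, Group D differed from Group A by 1.83, 2.63 and 2.86 log2, Group B by 1.83, 2.85 and 2.61 and Group C by 1.41, 2.03 and 2.19, smallest on slide 1 in each group. For tnfsf14 the values were 1.86, 2.76 and 2.10 in Group D, 1.13, 0.95 and 0.96 in Group B and 0.89, 1.37 and 0.61 in Group C. A group had 1 or 2 arrays on a slide, so these values carry little precision.

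The order of Groups E and F differed between slides. Group E differed from Group A in lbp by 2.0, 0.52 and 1.89 log2 on slides 1, 2 and 3, and Group F by 1.35, 2.12 and 0.57. For tlr8a the values were 2.20, 0.67 and 2.24 in Group E and 0.96, 2.16 and 0.96 in Group F, and for tnfsf14 1.24, 1.11 and 0.91 in Group E and 0.76, 2.04 and 0.04 in Group F. Group F was thus below Group E on slides 1 and 3 and above it on slide 2, by 1.60 log2 for lbp, 1.49 for tlr8a and 0.94 for tnfsf14. On slide 1 each of these groups had a single array, replicate 1, and on slide 2 a single array, replicate 2. Differences between slides and between single arrays cannot be told apart there. With slide as a block in the fit of all arrays the limma adjusted p of the 3 genes was 0.110 to 0.133 for Group E and 0.332 to 0.399 for Group F against Group A.

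**Figure D3:**
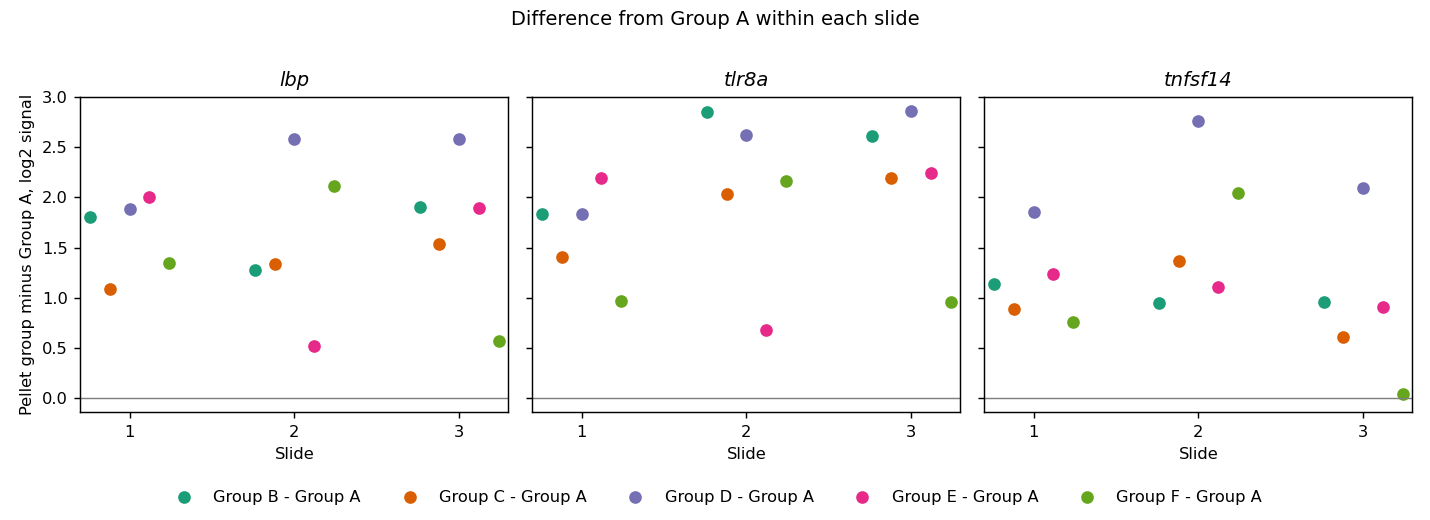
Difference in log2 signal between each pellet group and Group A within each of the 3 slides (horizontal axis) for lbp, tlr8a and tnfsf14. All points lie above 0, Group D is the highest on every slide for tnfsf14, and Group F lies above Group E on slide 2 and below it on slides 1 and 3 for all 3 genes.

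Whether the 3 genes vary together between arrays of 1 feed group was asked with the deviations of the 24 arrays from their group means. The genes were selected on tests of group differences, which use the spread of each gene inside groups but not how 2 genes deviate together. The family held 6 correlations, tested by permutation of arrays inside groups (100000 resamples, two-sided). The deviations of lbp and tnfsf14 correlated with r = 0.61 (permutation p = 0.00466, adjusted 0.0280) and rho = 0.53 (permutation p = 0.0155, adjusted 0.0930). Those of lbp and tlr8a gave r = 0.63 (permutation p = 0.0376, adjusted 0.113) and rho = 0.51 (permutation p = 0.0571, adjusted 0.171), and those of tlr8a and tnfsf14 r = 0.21 (permutation p = 0.417, adjusted 0.626) and rho = 0.11 (permutation p = 0.678, adjusted 0.813). Within slides 1, 2 and 3 (8 arrays each), r for lbp and tnfsf14 was 0.72, 0.65 and 0.79, for lbp and tlr8a 0.36, 0.76 and 0.65, and for tlr8a and tnfsf14 -0.20, 0.60 and 0.36.

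The relation of lbp and tnfsf14 rested on a few arrays. The arrays farthest from the median of lbp were replicate 2 of Group E, low for all 3 genes, and replicate 2 of Group F, high for all 3. Without these 2 arrays r was 0.45 for lbp and tnfsf14 (permutation p = 0.0585), 0.40 for lbp and tlr8a (permutation p = 0.232) and -0.11 for tlr8a and tnfsf14 (permutation p = 0.674). Over the 16 arrays of Groups B, C, D and A the values were 0.31 for lbp and tnfsf14 (permutation p = 0.311), -0.25 for lbp and tlr8a (permutation p = 0.448) and -0.53 for tlr8a and tnfsf14 (permutation p = 0.130). The share of spots well above background, a measure of an array's overall signal, gave r = -0.26 with lbp (permutation p = 0.297, adjusted 0.593), 0.04 with tlr8a (permutation p = 0.867, adjusted 0.867) and 0.09 with tnfsf14 (permutation p = 0.720, adjusted 0.864). The matching rho values were -0.38 (permutation p = 0.110, adjusted 0.221), 0.05 (permutation p = 0.848, adjusted 0.848) and 0.12 (permutation p = 0.619, adjusted 0.813). Without the 2 arrays farthest from the median share, r was -0.23, 0.10 and -0.03.

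**Figure D4:**
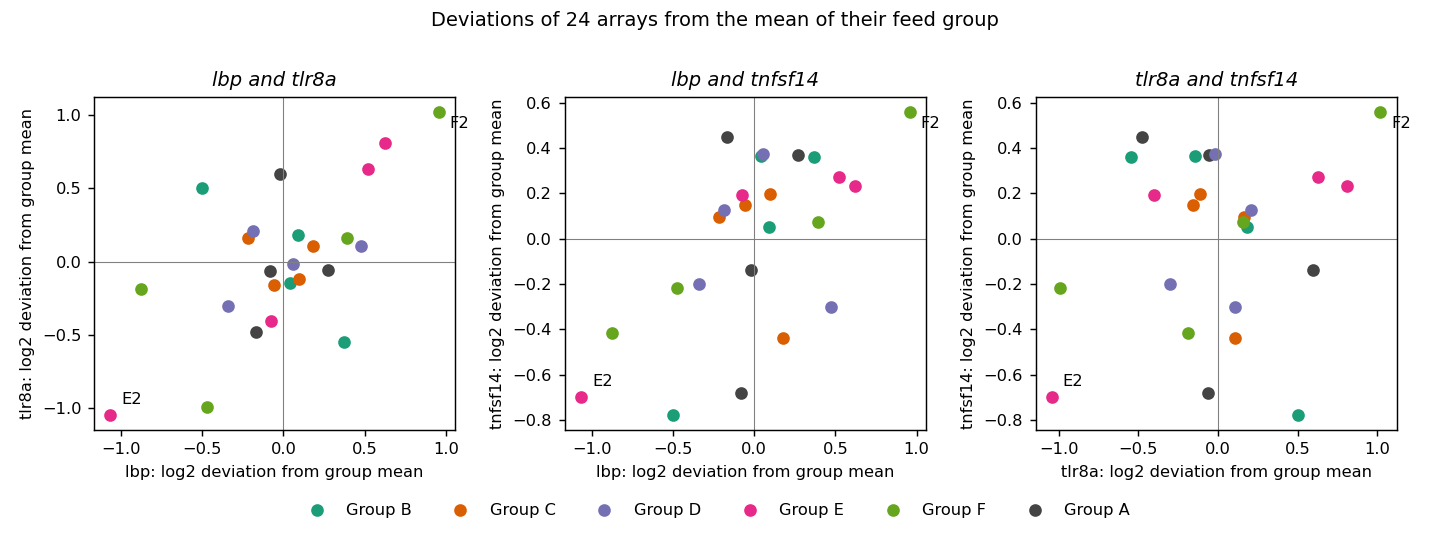
Deviation of each of the 24 arrays from the mean log2 signal of its feed group, for the 3 pairs of genes, coloured by group. Replicate 2 of Group E (E2) lies at the lower left and replicate 2 of Group F (F2) at the upper right of all 3 panels, and without them r for lbp and tnfsf14 is 0.45.

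Over all 24 arrays, feed differences included, the signal of lbp correlated with that of tnfsf14 (r = 0.87) and of tlr8a (r = 0.87). These values describe arrays that share the same feed groups and are given without a test. Among 14201 other probes well above background on at least 12 arrays, the most like lbp was CUST_3018_PI428621111 (r = 0.97), the most like tlr8a was CUST_14091_PI428621111 (r = 0.91) and the most like tnfsf14 was CUST_59954_PI428621111 (r = 0.95), none of which carries a symbol. In the ranking over these probes, tnfsf14 stood at place 119 and tlr8a at place 121 for lbp, and lbp at place 17 for tlr8a and 31 for tnfsf14. The pair tlr8a and tnfsf14 was less alike (r = 0.68), with tnfsf14 at place 508 for tlr8a and tlr8a at 561 for tnfsf14. Of the other entries with a symbol, acp5a, which encodes tartrate-resistant acid phosphatase, was the most like lbp (r = 0.88), and was next after lbp for tlr8a (r = 0.84) and for tnfsf14 (r = 0.83). The most opposite entry was serpina1 for lbp (r = -0.64) and for tlr8a (r = -0.62), and aldh1l1, which encodes a folate enzyme, for tnfsf14 (r = -0.70, against -0.60 for serpina1).

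The study's table lists lbp and tlr8a under an immune heading together with serpina1 and tm7sf2, and lists tnfsf14 elsewhere. Of the other genes of lipopolysaccharide, Toll-like receptor and TNF signalling, none is paired with a probe in the sources used here, so serpina1 is the only further immune gene that could be described. It encodes the protease inhibitor alpha-1-antitrypsin, in mammals an acute-phase protein of hepatocytes like LBP. Its mean signal was 17.39 ± 0.53 in Group B, 17.80 ± 0.10 in Group C, 17.13 ± 0.19 in Group D, 18.13 ± 0.39 in Group E, 18.01 ± 0.40 in Group F and 18.20 ± 0.34 in Group A (SD, n = 4 each). The mean of serpina1 thus differed from Group A by -1.07 log2 in Group D, -0.80 in Group B and -0.40 in Group C, whereas lbp was higher in these groups. The serpina1 arrays of Group D lay below every control array, while those of Groups B and C overlapped the arrays of Group A. The differences of serpina1 of -0.07 log2 in Group E and -0.18 in Group F were smaller than the SDs of these groups. The study chose serpina1 on the array signals too, so these values are a description without a test. The entry tm7sf2, a sterol reductase, was above all controls on every array of all 5 pellet groups, which was so for 0.203% of all probes. It was well above background on no control array, on 2 arrays of Group B, on 3 each of Groups C, E and F and on 4 of Group D. The entry acp5a was likewise above all controls on every array of the 5 groups.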

How the data were processed

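The samples were 24 one-colour arrays of liver RNA, 4 per feed group. The authors scanned them and extracted each array with Feature Extraction 10.7.1.1, and the deposited files hold, per spot, a background-subtracted intensity, median intensities and flags of other kinds without a unit. The deposited processed table holds log2 values, which per the study's methods were quantile-normalized in Partek, and 0 of its columns were unmatched. The columns share a median of 6.25, their background treatment is not given in the sources used here, and they were an alternative only. No growth, fillet or qPCR values were analysed here.

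Control and outlier spots were left out, repeat spots averaged, and all 24 arrays quantile-normalized together and log2-transformed. limma 3.58.1 (R 4.3.3) fitted feed group alone over 60080 probes, with Benjamini-Hochberg adjustment over all of them, and a call needs an adjusted p under 0.05 and at least 2-fold change. The methods name an ANOVA with further factors that they do not list, so only feed group was fitted. Correlations and figures used numpy 2.4.6, pandas 2.3.3 and matplotlib 3.10.9 in Python 3.11.15. The fit was tested on simulated data. Since no array is tied to 1 fish, p-values measure the spread between arrays.

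Named are the 3 members, the other entries with a symbol where they are like a member or stand under the same immune heading, and the probe most like each member. The members and lists were chosen with earlier results of these data known. Alternatives were 2 scalings to the 75th percentile, normexp with an offset of 50, the deposited values, outlier spots kept, dim probes left out (well above background on under 4 arrays), slide or replicate number as a block, each slide alone, fewer groups, the methods' t-test and leaving out 1 array at a time. Leaving out slide 1 was chosen after seeing the data. Same-numbered arrays of Groups F and E deviated together over all probes (r = 0.17, 0.29, 0.29 and 0.12 for replicates 1 to 4, each pair on 1 slide), so these are paired by slide. Those of Groups B and A were paired by slide as well (r = 0.147, 0.0963, 0.205 and 0.318, each pair on 1 slide). In both comparisons each array matched the same-numbered array best. For Groups C, D, E and F against Group A, at least 1 pair in each comparison lay under 0.1. For Groups C and D this pair was replicate 2, whose arrays lay on different slides from that of Group A. Their replicates 1, 3 and 4 each shared a slide with the same-numbered array of Group A and matched it best (r between 0.12 and 0.29). No 2 arrays held identical values.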

Additional observations from a re-analysis of the deposited data

Results flagged for a closer look

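In 2 of 18 sets of 4 arrays (3 genes in 6 groups), a single array was separated from its group by Dixon's ratio, which chance alone does for about 1 set in 20. For tnfsf14, replicate 2 of Group E read 5.72 against 6.62 to 6.69 on the other arrays of its group, and replicate 3 of Group C read 5.72 against 6.25 to 6.35. Both arrays lay on slide 2. That slide also held the lowest tnfsf14 array of Group A (-0.68 log2 from the group mean), Group B (-0.78) and Group D (-0.30). Other arrays of slide 2 lay above their group mean, at 0.56 in Group F, 0.09 in Group C and 0.13 in Group D. No array was left out for being flagged.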

How the results depend on the processing

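Of 408 values under alternative settings, 366 kept their direction and their call, or moved by less than the spread between arrays. With normexp and with the deposited values, differences from Group A were 1.06 and 1.06 for lbp in Group C, 2.05 and 2.06 for lbp in D, 0.71 and 0.77 for tlr8a in B, 0.52 and 0.56 in C, 0.79 and 0.84 in D, and 0.48 and 0.47 for tnfsf14 in B, 0.31 and 0.34 in C, 1.14 and 1.14 in D. Within slide 1 lbp gave 1.89 in D and tlr8a 1.83 in B, 1.41 in C and 1.83 in D. Within slide 2 lbp gave 1.28 and tlr8a 2.85 in B, tnfsf14 1.37 in C and 2.76 in D. Within slide 3 lbp gave 1.54 in C, and tlr8a 2.19 in C and 2.86 in D. Without slide 1, tlr8a gave 2.73 in B and 2.77 in D. Within slide 2, Group F against Group E turned to 1.60 for lbp, 1.49 for tlr8a and 0.94 for tnfsf14, and tlr8a in Group F against Group A passed the test (2.16 log2, limma adjusted p = 0.0464, where that result ranged from 0.0464 to 1 over all settings). A single slide leaves 2 residual degrees of freedom. Leaving out 1 array gave 1.30 to 1.86 for lbp and 1.38 to 2.0 for tlr8a in Group E against Group A. The correlation of lbp and tlr8a was 0.55 with deposited values (permutation p = 0.0705), 0.40 without the 2 farthest arrays and -0.25 without Groups E and F. That of lbp and tnfsf14 was 0.45 and 0.31, and that of tlr8a and tnfsf14 -0.11 and -0.53. The cause was not tested. The replicate block changed no call. With it, Group F against Group E stayed at -0.43 for lbp, -0.58 for tlr8a and -0.32 for tnfsf14, and Group E against Group A at 1.51 (limma adjusted p = 0.138), 1.65 (0.112) and 1.12 (0.107). Scaling to a 75th percentile shifted the median of all probes by -0.08 to -0.45 log2 in the comparisons with Group A, and no call of the 3 genes changed. Probes called higher in Group E than in A numbered 14, but 2 and 4 with the 75th percentiles, 1 with normexp, 1 with the deposited values, 7 in the fit of 8 arrays, 0 with the methods' t-test (2970 at an unadjusted p below 0.05), 80 with dim probes left out, 65 without slide 1 and 2 to 190 with 1 array left out. In Group F they numbered 12, but 20 with the replicate block, 19 with dim probes left out, 3 in the fit of 8 arrays, 3 with the methods' t-test and 8 to 27 with 1 array left out. Within slides 1, 2 and 3 they numbered 1482, 141 and 0 in Group E and 1600, 193 and 0 in Group F, and on slide 1 Group F against Group E gave 1339 higher and 1254 lower. Signal over background limits tlr8a most, on 9 of 24 arrays.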
